A study of Rattus norvegicus with 6 samples.

Results

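Long-probe tiles are stretches of the rat genome that a tiling array covers with long oligonucleotides. Probes were joined into a tile as long as the gap between neighbouring starts was at most 1000 bp, and a tile was taken where it lay on an autosome, held at least 5 probes and had a mean probe length of at least 53 bases. These criteria gave 2114 of the array's 16174 tiles (13.1%), or 14.0% of the 15140 autosomal tiles with at least 5 probes, and no signal entered the choice. The 13026 remaining autosomal tiles with at least 5 probes, called the other tiles here, served for comparison. Probe length is used as a stand-in for a composition rich in A and T. Base composition itself and the distance to genes were not measured here, because the files used here name probes by position in build rn4 (RGSC v3.4) alone, so the tiles are named by position.

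DNA came from ovarian granulosa cells of adult female Sprague Dawley offspring, isolated at postnatal day 56. Their mothers were dosed by gavage from gestation day 1 to day 21, with water in the control group (0 mg/kg) and with 8 mg of cadmium chloride per kg of body weight in the cadmium group. Each group had 3 arrays, which the labels call biological replicates. The labels do not say if each array stands for a single rat or for pooled rats, or from how many litters they came, so p-values measure the spread between these arrays. The cells were pushed out of punctured follicles and strained, and their identity could not be checked on arrays without gene names.

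In methylated DNA immunoprecipitation, an antibody against methylated cytosine captures DNA fragments, and the captured DNA is hybridised beside input DNA. In mammals the antibody's target lies almost wholly at CpG dinucleotides, and DNA poor in CpG offers it few cytosines however fully they are methylated. CpG islands at gene starts are usually unmethylated, whereas CpG-poor promoters are often methylated where the gene is silent. Array designs commonly lengthen probes in sequence poor in G and C to even out melting temperatures, so probe length and base composition tend to go together. The ratio of captured DNA (Cy5) to input DNA (Cy3), given here as log2 and centred on each array's median probe, is therefore a relative measure within an array and not a share of methylated cytosines.

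One array stood apart. The standard deviation (SD) of the ratio over all 15846 tested tiles was 0.78 on cadmium replicate 2 and between 1.06 and 1.12 on the other 5 arrays. Cadmium replicate 2 was also alone in its scan batch. Control replicates 1 and 2 and cadmium replicate 1 formed scan batch 2, and control replicate 3 and cadmium replicate 3 formed scan batch 3. Differences between the groups in array means are given with and without it.

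The long-probe tiles held 24526 of the array's 172669 probes. A tile had a median of 9 probes (range 5 to 276) and spanned a median of 1667 bp (range 686 to 50673 bp). The other tiles had the same median span and a median of 10 probes. Probe starts lay a median of 163 bp apart in long-probe tiles and 162 bp apart in the other tiles. The median over tiles of the mean probe length was 55.2 bases, against 47.8 bases in the other tiles. The design used lengths from 45 to 60 bases, and 44.8% of the probes in long-probe tiles were of the longest kind, against 7.70% in the other tiles. The shortest kind made up 10.2% and 56.3%, respectively. In all, 46.4% of the array's 23710 probes of 60 bases fell into long-probe tiles, and 7 of these tiles held 60-base probes only. Tiles of over 20 probes made up 2.98% of long-probe tiles (63 tiles) and 1.12% of the other tiles.

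The limit of 53 bases cut through a continuous range of lengths. Within 1 base of it lay 517 tiles inside and 579 outside. Of the 3 tiles nearest inside (all at 53 bases), chr18:60769-61836 had a control mean ratio of -1.54, chr8:2037380-2039022 of -1.93 and chr18:914101-915884 of 0.25. The 3 nearest outside, at 52.9 bases, were chr3:74533565-74535278 at -1.65, chr2:82398257-82400047 at -3.31 and chr20:1405784-1407447 at -2.03. The ratios on both sides of the limit overlapped.

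Long-probe tiles were unevenly spread over the genome. They made up 24.6% of the autosomal tiles with at least 5 probes on chromosome 3, 20.5% on chromosome 8, 20.2% on chromosome 11 and 19.0% on chromosome 1. On chromosomes 19 and 12 the shares were 2.56% (10 tiles) and 1.91% (8 tiles). Chromosome 1 carried 416 of the tiles and chromosome 3 carried 330. Long-probe tiles were also neighbours of each other. Among autosomal tiles with at least 5 probes, 70.3% of them had a long-probe tile directly before or after, against 12.0% of the other tiles. The nearest long-probe tile lay a median of 39569 bp away, and 63.95% had one within 100 kb. There were 81 runs of at least 5 consecutive long-probe tiles, which held 1040 tiles, and 36 runs of at least 10, which held 762.

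**Figure D1:**
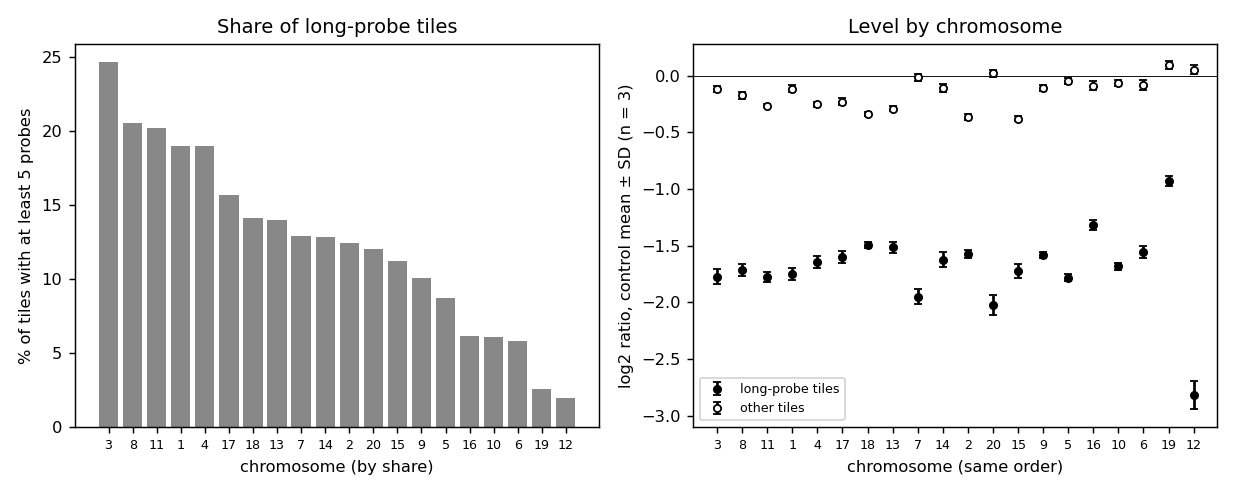
Left, bars give the share of autosomal tiles with at least 5 probes that are long-probe tiles, by chromosome in falling order, from 24.6% on chromosome 3 to 1.91% on chromosome 12. Right, points give the mean log2 ratio over the control arrays with its SD (n = 3) in long-probe tiles (filled) and other tiles (open); the filled points lie below the open ones on each autosome, with no term for probe length.

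Joining long-probe tiles less than 1 Mb apart gave 533 groups, of which the 3 largest held 451 tiles. The largest, chr3:67121127-75807395, contained 211 long-probe tiles among 259 tiles with at least 5 probes (81.5%). The next, chr1:159417977-166548654, contained 148 among 232 (63.8%), and chr8:38897896-43139978 contained 92 among 110 (83.6%). The control mean ratio of the long-probe tiles in these intervals was -1.77 ± 0.071 (SD, n = 3), -1.64 ± 0.059 and -1.77 ± 0.060, close to the mean over all long-probe tiles. The other tiles interspersed in the same intervals lay higher, at -0.59, -0.92 and -1.08, yet well below the mean of all other tiles. Neighbouring long-probe tiles were nonetheless poorly matched in level: over 1101 pairs within 100 kb of each other the correlation of the control ratio was 0.145, a description over pairs that share arrays and region. By chromosome, the control mean of long-probe tiles ran from -2.82 ± 0.13 (SD, n = 3) on chromosome 12 to -0.93 ± 0.043 on chromosome 19, the 2 chromosomes with the fewest such tiles.

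Of the probes in long-probe tiles, 17771 (72.5%) had an input signal well above background on all 6 arrays and no outlier flag, against 77.2% of the probes in other tiles. This left 2082 long-probe tiles with at least 3 usable probes and 12963 other tiles, and 32 long-probe tiles were not tested.

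The captured fraction was low in long-probe tiles on every array. Their mean log2 ratio was -1.69, -1.77 and -1.68 on the 3 control arrays and -1.70, -1.34 and -1.55 on the 3 cadmium arrays. The other tiles lay at -0.16, -0.14 and -0.11 on the control arrays and at -0.12, -0.20 and -0.077 on the cadmium arrays. These array means of long-probe tiles were all below those of other tiles, without overlap. Long-probe minus other tiles came to -1.49 ± 0.18 (SD over 6 arrays), and was -1.14 on cadmium replicate 2 and between -1.63 and -1.48 on the others. An exact sign-flip permutation test over the 6 arrays, two-sided, gave p = 0.03125, the smallest that 6 arrays allow. With Benjamini-Hochberg adjustment over the 20 such comparisons of long-probe with other tiles, this smallest p became 0.0391. All arrays carry the same probes, so such a p measures agreement among arrays. It does not separate capture from fixed effects of the probes. Once each array's median for probes of the same length had been removed, long-probe minus other tiles came to 0.042 ± 0.020, of the opposite sign. It was above 0 on 6 of 6 arrays (exact sign-flip p = 0.03125, adjusted 0.0391). The direction of the difference thus did not hold under this correction. However, length defines the long-probe tiles and their own probes enter these medians, so the correction removes part of the difference by design. Both corrected means lay below 0, at -0.030 in long-probe and -0.072 in other tiles. The change of sign is therefore no measure of capture at equal length. Among probes of equal length the sign depended on the length, as given below.

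The difference was larger in the captured channel than in the input channel. Long-probe minus other tiles came to -1.94, -1.95, -1.72, -1.90, -1.74 and -1.72 for the centred log2 signal of immunoprecipitated DNA on control replicates 1 to 3 and cadmium replicates 1 to 3. For input DNA the differences were -0.41, -0.32, -0.15, -0.32, -0.59 and -0.25 on the same arrays. The means were -1.83 for immunoprecipitated DNA and -0.34 for input, each with the exact permutation p of 0.03125 (adjusted 0.0391). These are levels of probes that differ in length by the choice of tiles, and the same probes are on all arrays, so capture and the response of the probes cannot be told apart here. The captured channel was also near the array's limit of detection: it was well above background for 48.6% to 51.8% of the probes in long-probe tiles, against 79.1% to 82.8% in other tiles. For input the shares were 86.4% to 94.95% and 90.2% to 98.8%. Among the 17771 usable probes of long-probe tiles, 34.4% were above background in the captured channel on none of the 6 arrays, against 12.1% in other tiles, and 65 tested tiles had no probe above background in that channel on all 6. For such probes the ratio is only a bound. Where both channels had to be well above background on all arrays, 1263 long-probe tiles remained, and their difference from the other tiles was -0.93.

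**Figure D2:**
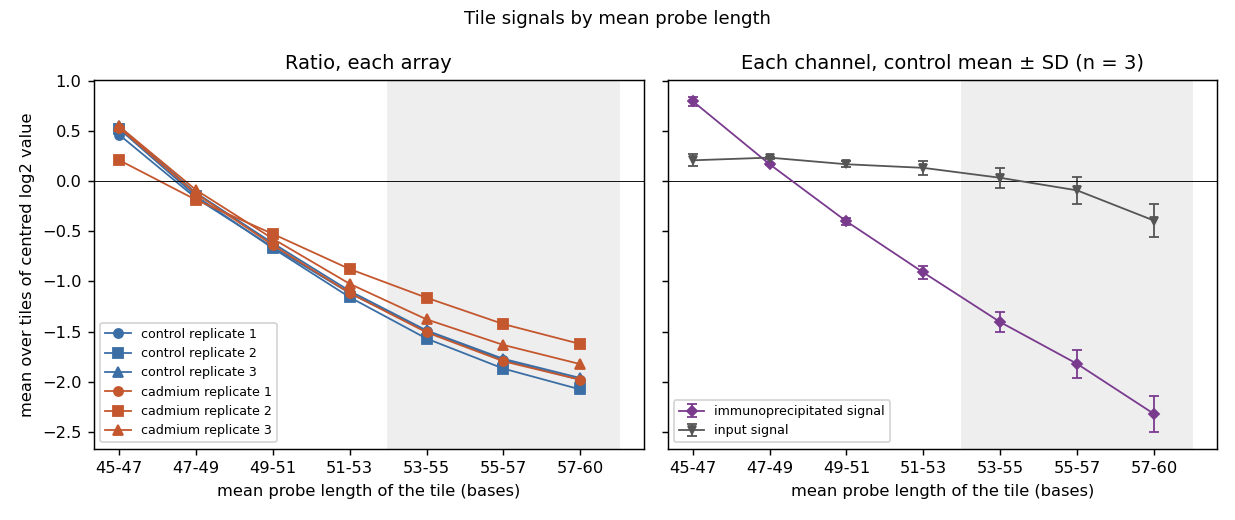
Mean centred log2 values over tested autosomal tiles with at least 5 probes, by classes of mean probe length 2 or 3 bases wide, with the classes of long-probe tiles shaded. Left, the ratio on each array; right, each channel as the mean and SD of the 3 control arrays. The control ratio runs from 0.51 in tiles of 45 to 47 bases to -2.01 in tiles of 57 to 60 bases, and the captured channel falls further than the input channel.

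The level fell steadily with probe length, within long-probe tiles as across the array. The control mean ratio was 0.51 ± 0.042 (SD, n = 3) in tiles of 45 to 47 bases and -1.12 ± 0.032 in tiles of 51 to 53 bases. Among long-probe tiles it was -1.52 ± 0.045 in the 948 tiles of 53 to 55 bases, -1.81 ± 0.053 in the 731 tiles of 55 to 57 bases and -2.01 ± 0.062 in the 403 tiles of 57 to 60 bases. Over the same 3 classes the captured signal of control arrays fell from -1.40 to -1.82 and -2.32, and the input signal from 0.033 to -0.093 and -0.39. Across single tiles the relation was looser in long-probe tiles, whose control ratio and mean length correlated at -0.26 over 2082 tiles, than in other tiles, at -0.60 over 12963 tiles. Both are descriptions over tiles measured on shared arrays, and the range of lengths is narrower in long-probe tiles.

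Probes of 1 length allow the surroundings of a probe to be compared at equal design length. The 2034 usable 45-base probes that lay in long-probe tiles had a mean ratio of -0.10, against 0.76 for the 57992 such probes in other tiles. The difference was -0.86, -0.96, -0.94, -0.95, -0.54 and -0.91 on control replicates 1 to 3 and cadmium replicates 1 to 3. Here the captured signal differed by -0.47 and the input signal by 0.39 on average. For 50-base probes the difference was -0.16, and for 55-base probes the difference of 0.041 did not reach the threshold (5 of 6 arrays higher; exact permutation p = 0.0625, adjusted 0.0735).

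The order turned for the longest probes. The 6755 usable 60-base probes of long-probe tiles had a mean ratio of -2.20, against -2.35 for the 7601 in other tiles. The difference was 0.17, 0.16 and 0.15 on the control arrays and 0.17, 0.053 and 0.18 on the cadmium arrays, with a mean of 0.15. Both channels were lower there than in other tiles, with differences of -0.15 for the captured and -0.29 for the input signal. The captured signal of these probes averaged -2.94 in long-probe tiles, and where it was not well above background the ratio is only a bound. The differences at 45, 50 and 60 bases had the same sign on all 6 arrays (exact sign-flip p = 0.03125, adjusted 0.0391).

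Within a tile, too, long probes read lower than short ones. In the 1063 long-probe tiles with usable probes of both 45 and 60 bases, the ratio of 60-base minus 45-base probes was -1.94 ± 0.14 (SD over 6 arrays), and it was below 0 on all 6 arrays in 864 tiles (81.3%). In other tiles it was -2.99, and the difference between both kinds of tile was 1.05 (6 of 6 arrays; exact permutation p = 0.03125, adjusted 0.0391).

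**Figure D3:**
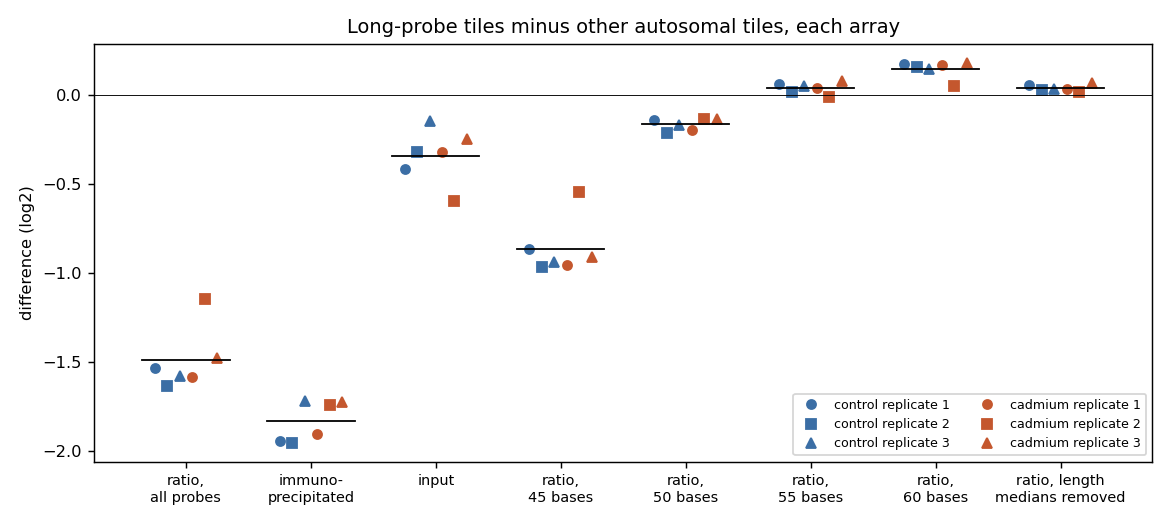
Long-probe minus other tiles on each array (points, by group and replicate) with the mean over 6 arrays (bars), in log2 units, for the ratio over all probes, each channel, the ratio of probes of 1 length and the ratio after removing each array's median per probe length. All points lie below 0 for all probes, both channels and 45- and 50-base probes, and above 0 for 60-base probes and after removing length medians.

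The ratio of 60-base probes varied with their position inside the tile. Tiles of up to 20 probes (2051 long-probe and 12878 other tiles) were divided into 5 equal stretches by rising coordinate. In long-probe tiles the 60-base probes of the middle stretch had mean ratios of -2.14, -2.22 and -2.16 on the control arrays and -2.09, -1.81 and -1.999 on the cadmium arrays. In the first stretch the values were -2.42, -2.50 and -2.40, and -2.38, -2.05 and -2.23. The centre exceeded the mean of both outer stretches by 0.26 ± 0.016 (SD over 6 arrays), on 6 of 6 arrays. In other tiles the same contrast was -0.023 ± 0.033, so that it was larger by 0.28 in long-probe tiles. The exact sign-flip permutation p was 0.03125 for long-probe tiles and for the difference (adjusted 0.0417 over 16 contrasts of this kind) and 0.156 for other tiles (adjusted 0.192). As above, these p-values measure agreement among arrays that carry the same probes, not the source of the contrast.

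The captured signal of these 60-base probes did not differ beyond the spread of arrays in long-probe tiles (centre minus edge 0.0040 ± 0.013). The input signal was lower at the centre, with a difference of -0.26 on average. Captured signal was weak, with a mean of -2.94 over all usable 60-base probes of long-probe tiles. Among usable probes of all lengths there, 34.4% were well above background in that channel on no array. Equal capture at centre and edge can therefore not be read from these values. The ratio of 45-base probes of long-probe tiles went the other way from that of 60-base probes, with a centre minus edge difference of -0.11 (6 of 6 arrays below 0). Probe lengths were not even along the tile, with a mean of 56.2 bases in the middle stretch against 54.2 and 54.1 bases in the outer ones. Over probes of all lengths the centre of long-probe tiles differed from the edges by -0.0073 ± 0.017 (exact permutation p = 0.375, adjusted 0.429). After removal of the length medians it stood 0.38 above them, against 0.023 in other tiles.

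**Figure D4:**
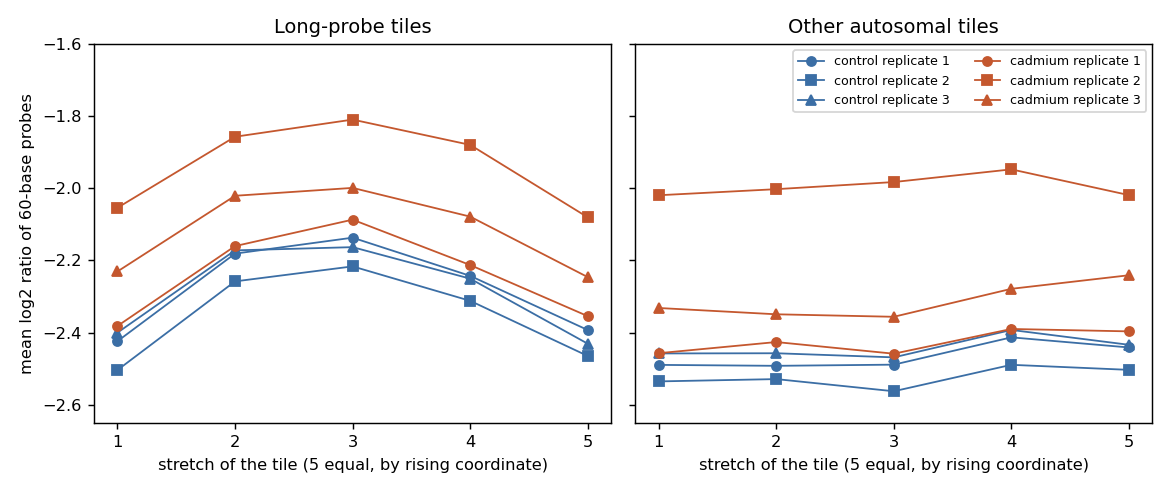
Mean log2 ratio of 60-base probes in each of 5 equal stretches of a tile by rising coordinate, on each array (blue control, orange cadmium), in long-probe tiles (left) and other tiles (right) of up to 20 probes. In long-probe tiles each array is highest in the middle stretch, with a centre 0.26 above the edges on average; in other tiles the contrast is -0.023.

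Single long-probe tiles differed from each other by far more than replicates of a tile. Their control mean ratio had a median of -1.72, quartiles of -2.23 and -1.22, and extremes of -4.82 and 2.41. The SD over tiles was 0.80, whereas a tile's SD over replicates had a median of 0.13 in control and 0.23 in cadmium arrays. Tile ratios correlated between arrays at 0.9501 to 0.974 without cadmium replicate 2, and at 0.906 to 0.924 for pairs with it; these are descriptions over 2082 tiles that share probes. On all 6 arrays, 2005 tiles (96.3%) lay below 0 and 1383 (66.4%) below -1, against 47.1% and 10.2% of other tiles. Only 18 long-probe tiles (0.865%) lay above 0 on all 6, against 35.8% of other tiles, and 1 lay above 1, against 250 other tiles. Over long-probe tiles the control ratio correlated at 0.71 with the captured signal and at -0.30 with the input signal, of which the ratio is made.

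Ordered by the mean over 6 arrays, the tile with the highest ratio was chr20:7323-9000, near the start of chromosome 20, with 10 probes of which 3 were usable. It read 2.52, 2.37 and 2.35 on the control arrays and 2.71, 1.25 and 2.28 on the cadmium arrays. Its captured signal was above the array's median (control mean 1.09 ± 0.046, SD, n = 3) and its input signal below it (-1.41 ± 0.13). Next came chr8:41330130-41331835, which lies inside the dense interval of chromosome 8 described above. It read 1.34, 1.32 and 1.39 in control and 1.48, 0.70 and 1.41 in cadmium arrays, and all 4 of its usable probes were above background in the captured channel on all 6 arrays. In both tiles cadmium replicate 2 was the lowest array and the remaining 5 were close together. The next 3 tiles, chr4:159882837-159883997, chr8:35582747-35584436 and chr6:49660843-49662360, had control means of 1.09 ± 0.021 (SD, n = 3), 0.98 ± 0.16 and 0.96 ± 0.26. All 5 combined a raised captured signal with an input signal under the array's median.

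At the other end, chr15:5550212-5551768 read -4.95, -4.77 and -4.75 on the control arrays and -4.91, -3.89 and -4.08 on the cadmium arrays. Its captured signal was only moderately low (control mean -0.73 ± 0.12, SD, n = 3), while its input signal was very high (4.01 ± 0.13). The next lowest tile, chr1:1008130-1009815, had a control mean of -3.99 ± 0.29 with a captured signal of -3.43 and an input signal of 0.48. None of its usable probes was above background in the captured channel on all 6 arrays. The tiles chr14:43691-45356, chr1:760431-761120 and chr8:74446583-74448350 followed at -4.05 ± 0.13, -4.17 ± 0.38 and -3.98 ± 0.14. All 5 combined a captured signal below the array's median with an input signal above it.

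Probes of 1 tile also spread widely. The range between the highest and lowest usable probe of a long-probe tile had a median of 4.26, against 5.02 in other tiles. The widest range was found in the tile with the most probes, chr1:115312109-115362781, which covers 50673 bp with 276 probes, 44.2% of them of 60 bases. Its 220 usable probes ran from -5.32 at position 115334131 to 3.98 at position 115313767. Its mean was -1.74, -1.89 and -1.67 on the control arrays and -1.80, -1.40 and -1.62 on the cadmium arrays. The tiles chr7:29077660-29127584 and chr13:51083238-51132702, with 262 probes each, had control means of -1.56 ± 0.072 (SD, n = 3) and -1.48 ± 0.042. Over all 63 tiles of more than 20 probes the control mean was -1.49, and over smaller long-probe tiles it was -1.72. The tiles with the next widest ranges, chr9:22124657-22162564 (196 probes) and chr14:109654846-109661710 (38 probes), spanned 9.25 and 9.19 and had control means of -1.63 ± 0.033 and -1.59 ± 0.12.

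Of the tiles made up of 60-base probes alone, chr1:49183602-49185120 read -3.54, -3.70 and -3.30 in control and -3.63, -3.16 and -3.17 in cadmium arrays. By contrast, chr8:17052800-17054482 read -0.77, -1.42 and -0.97 in control and -0.68, -0.36 and -0.92 in cadmium arrays with probes as long. Its 3 usable probes and a low input signal (-1.50 ± 0.25) limit that value, with 2 of the 3 not well above background in the captured channel on all control arrays. In chr1:49183602-49185120 this held for 5 of 6 usable probes on all control and on all cadmium arrays, so its ratios are bounds and the size of the gap between both tiles is not measured. Another such tile, chr14:41101153-41101844, had 1 usable probe and was not tested.

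The study asked whether cadmium given to the dam left a difference in DNA methylation in the granulosa cells of her daughters. No long-probe tile passed: 0 of 2082 had an adjusted p under 0.05 (limma, Benjamini-Hochberg over all 15846 tiles), against 1 of all tiles (0.00631%), and the lowest adjusted p among them was 0.856. With scan batch as a block 7 passed (0.336%, against 0.151% of all tiles, 24 tiles), and with array weights 52 (2.50%, against 0.669%, 106 tiles). Cadmium replicate 2 is alone in its scan batch, so the block takes up that array and the remaining arrays set the difference. At an unadjusted p under 0.05 there were 231 long-probe tiles (11.1%), against 3.57% of all tiles. Of these, 229 were higher in cadmium offspring (11%, against 3.26% of all tiles) and 2 lower (0.0961%, against 0.303%). The groups did not overlap, with cadmium higher, in 323 tiles (15.5%, against 7.95% of all tiles) and, with cadmium lower, in 7 (0.336%, against 2.28%). A single tile's difference had a 95% confidence interval of ± 0.34 at the median.

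Most single differences were small and pointed the same way. The difference of cadmium minus control had a median of 0.18 over long-probe tiles (quartiles 0.084 and 0.28), against 0.028 over all tested tiles and 0.0024 over other tiles. It was above 0 in 1851 long-probe tiles (88.9%), against 56.2% of all tiles. The mean ratio over long-probe tiles was -1.71 ± 0.051 (SD, n = 3) in control and -1.53 ± 0.18 in cadmium arrays, a difference of 0.18. By an exact two-sided permutation test of the 6 arrays p was 0.3 (adjusted 0.45 over 9 such comparisons), where 3 against 3 allows no p under 0.1. The groups overlapped, since cadmium replicate 1 (-1.70) lay among the control arrays (-1.77 to -1.68).

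The spread of arrays moved with this shift. The SD over long-probe tiles was 0.80, 0.82 and 0.79 on control arrays and 0.81, 0.68 and 0.74 on cadmium arrays, so the arrays with the least negative mean had the narrowest spread. Without cadmium replicate 2 the group difference in the mean was 0.087, within scan batch 2 it was 0.031 and within scan batch 3 it was 0.13. With the ratios of all arrays brought to equal spread, it was -0.012. The number of tiles at an unadjusted p under 0.05 was 227 (10.9%, against 4.62% of all tiles) without cadmium replicate 2, 68 (3.27%, against 1.36%) without control replicate 2 and 49 (2.35%, against 1.39%) at equal spread. At equal spread 30 of the 49 were higher in cadmium offspring (1.44%, against 0.751% of all tiles). Long-probe minus other tiles differed between groups by 0.18 (exact permutation p = 0.3, adjusted 0.45), by 0.049 without cadmium replicate 2, by -0.0012 within scan batch 2 and by 0.098 within scan batch 3. After removal of the length medians, the median difference of long-probe tiles was 0.010, with 110 tiles at an unadjusted p under 0.05 (5.28%, against 3.05% of all tiles), 61 of them higher (2.93%, against 1.95%) and 49 lower (2.35%, against 1.1%).

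In the separate channels, too, no long-probe tile passed (limma, lowest adjusted p 0.999 for immunoprecipitated DNA, against 0% of all tiles called, and 0.919 for input, against 0.00631% called). At an unadjusted p under 0.05 there were 166 long-probe tiles in the captured channel (7.97%, against 3.13% of all tiles) and 58 in the input channel (2.79%, against 1.56%). In the captured channel 155 of these were higher (7.44%, against 2.57% of all tiles) and 11 lower (0.528%, against 0.562%) in cadmium offspring. In the input channel 6 were higher (0.288%, against 0.511%) and 52 lower (2.50%, against 1.05%). The captured signal had a median difference of 0.082 and the input signal of -0.11 over long-probe tiles. Without cadmium replicate 2, the group difference in the array means of the captured signal was 0.088 (0.086 with it). For the input signal it was 0.0044 (-0.10 with it), so the input difference over all arrays depended on that array. Within scan batch 2 the captured signal differed by 0.085 and the input signal by 0.048. Within scan batch 3 the differences were 0.017 and -0.11, so neither was even across batches. Array means of the captured signal were -1.80, -1.81 and -1.58 in control and -1.72, -1.64 and -1.56 in cadmium arrays. Those of the input signal were -0.20, -0.12 and 0.042 in control and -0.11, -0.42 and -0.065 in cadmium arrays. In both channels the groups overlapped (exact permutation p = 0.3 and 0.6, adjusted 0.45 and 0.771).

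By probe length, the mean ratio of 60-base probes in long-probe tiles was the measure that separated the groups. It was -2.27, -2.35 and -2.28 in control and -2.24, -1.93 and -2.11 in cadmium arrays, so cadmium was higher by 0.21 without overlap, at the smallest p that the design allows (exact permutation p = 0.1, adjusted 0.45). Within scan batch 2 the difference was 0.070, within scan batch 3 it was 0.17, and without cadmium replicate 2 it was 0.12. The 60-base probes of other tiles showed a difference of 0.23, also without overlap, and of 0.11 without cadmium replicate 2. For 45-base probes of long-probe tiles the difference was 0.0089 (exact permutation p = 0.7, adjusted 0.788), and 0.018 without cadmium replicate 2. For 50- and 55-base probes it was 0.17 and 0.22 with overlapping groups, and 0.045 and 0.078 without cadmium replicate 2.

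The size of the difference followed the level of a tile, in long-probe and other tiles alike. For tiles with a control ratio between -3 and -2 the median difference was 0.25 in 639 long-probe tiles and 0.26 in 352 other tiles. Between -2 and -1 it was 0.17 in 983 and 0.16 in 2075 tiles, and between -1 and 0 it was 0.065 in 318 and 0.055 in 4651 tiles. Between 0 and 1 it was -0.033 in 37 and -0.072 in 4273 tiles. Without cadmium replicate 2 the values between -3 and -2 were 0.12 and 0.095, and between 0 and 1 they were 0.014 and 0.027. The control arrays both set the class and enter the difference, so these medians are a description.

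**Figure D5:**
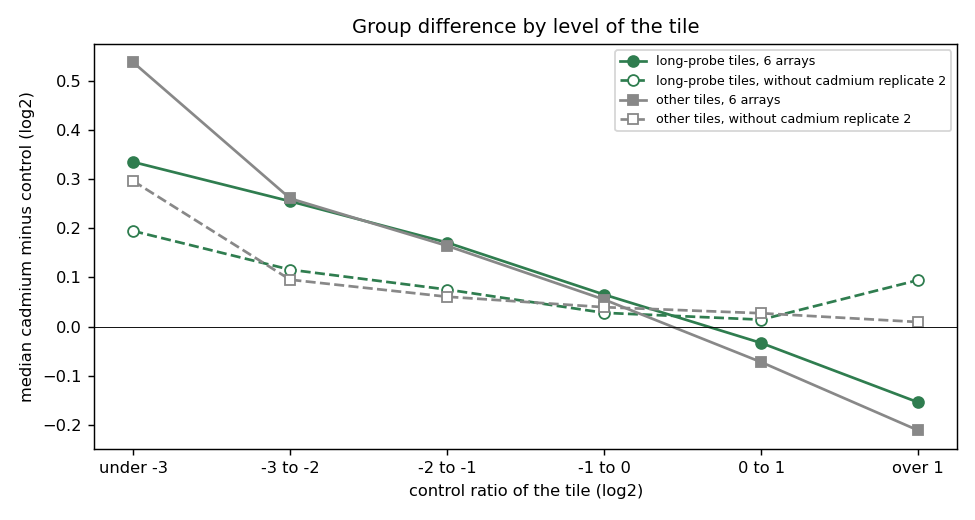
Median cadmium minus control difference (log2) of tiles by control ratio, for long-probe tiles (green circles) and other tiles (grey squares), over 6 arrays (filled) and without cadmium replicate 2 (open, dashed). Both kinds of tile run close together from -3 to 0, with medians of 0.25 and 0.26 between -3 and -2; the classes under -3 hold 102 and 22 tiles and those over 1 hold 3 and 1590.

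The long-probe tile with the smallest unadjusted p was chr15:26339073-26340697, with 6 usable probes. It read -3.29, -3.46 and -3.51 in control and -2.83, -2.40 and -2.74 in cadmium arrays, so the groups did not overlap. The difference was 0.76 ± 0.14 (standard error, SE; limma adjusted p 0.856), and 0.54 and 0.77 within scan batches 2 and 3. Blocking on scan batch gave a limma adjusted p of 0.0227, and array weights gave 0.00559, so this tile passed in both fits. This tile and those named below were taken by smallest p on the same arrays, among tiles whose groups do not overlap. Neither these fits nor the lack of overlap is thus an independent check. The captured signal differed by 0.14 and the input signal by -0.63. However, 4 of the tile's 6 usable probes were well above background in the captured channel on no control array, and 4 on no cadmium array. A captured difference could therefore show in few of these 6 probes.

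In chr7:7924030-7925571 the captured signal carried more of the difference in group means. This tile read -2.13, -2.27 and -2.01 in control and -1.63, -1.36 and -1.56 in cadmium arrays, without overlap. The difference was 0.62 ± 0.13 (SE; limma adjusted p 0.856), made up of 0.51 in the captured and -0.12 in the input signal. It was 0.57 within scan batch 2 and 0.45 within scan batch 3. In the captured signal the groups overlapped, at -2.26, -2.39 and -1.61 in control and -1.68, -1.51 and -1.55 in cadmium arrays. Within scan batch 3 that signal read -1.61 in control and -1.55 in cadmium, and the input signal 0.34 and -0.046. Of the tile's 6 usable probes, 2 were well above background in the captured channel on no control array, and 2 on no cadmium array. With scan batch as a block the limma adjusted p was 0.0453, and with array weights 0.00627.

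Similar values were found in chr2:127832649-127833430, which read -3.25, -3.51 and -3.26 in control and -2.81, -2.89 and -2.64 in cadmium arrays. The captured signal differed by 0.48 and the input signal by -0.090 there. Of its 4 usable probes, 2 were well above background in the captured channel on no control array, and 1 on no cadmium array. In chr17:43476398-43478166, a tile with a mean probe length of 59 bases, the control arrays read -2.61, -2.55 and -2.58 and the cadmium arrays -2.15, -2.06 and -2.20. Replicates were close in both groups, and the difference of 0.45 ± 0.11 (SE) was made up of -0.29 in the input and 0.16 in the captured signal. In 4 of its 7 usable probes the captured signal was well above background on no control and no cadmium array. The captured part is not measured for these 4 probes. The last of these tiles, chr7:8294914-8296626, differed by 0.52 ± 0.13. None of the 3 passed (limma adjusted p 0.856), but chr2:127832649-127833430 did when blocked on scan batch (0.0355) or fitted with array weights (0.00598), and chr17:43476398-43478166 with array weights (0.0447).

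Few long-probe tiles were lower in cadmium offspring. The smallest p in that direction belonged to chr1:243837922-243839314, which read -1.30, -1.15 and -1.80 in control and -1.96, -2.47 and -1.94 in cadmium arrays. Its difference was -0.71 ± 0.20 (SE, limma adjusted p 0.856), with a captured signal that differed by 0.22 and an input signal that differed by 0.92. The difference was -0.74 within scan batch 2, -0.14 within scan batch 3 and -0.54 without cadmium replicate 2. Of the tile's 5 usable probes, 2 were well above background in the captured channel on no control array, and 2 on no cadmium array. This tile passed with array weights (limma adjusted p 0.0286). In chr1:212296466-212298135 the control arrays read -0.34, -0.38 and -0.27 and the cadmium arrays -0.63, -0.67 and -0.63, a difference of -0.31 ± 0.10 with close replicates. The tiles chr4:70816440-70818202, chr1:163948276-163950013 and chr1:165476533-165478277 differed by -0.20, -0.14 and -0.14 without overlap, and by -0.13, -0.20 and -0.088 without cadmium replicate 2. These 4 did not pass (limma adjusted p 0.856), and the last pair changed sign under 1 alternative each: to 0.082 with the median of probes for chr1:163948276-163950013, and to 0.087 without the filter on dim probes for chr1:165476533-165478277. The last pair of tiles lies in the dense interval of chromosome 1 described above.

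The dense intervals as a whole gave values like those of all long-probe tiles. The median difference was 0.21 on chromosome 3, 0.20 on chromosome 1 and 0.17 on chromosome 8. Cadmium means there were -1.57 ± 0.19 (SD, n = 3), -1.46 ± 0.18 and -1.59 ± 0.20, with cadmium replicate 2 the highest array at -1.37, -1.26 and -1.37. The group difference in the mean was 0.20, 0.19 and 0.18, and 0.10, 0.092 and 0.067 without cadmium replicate 2.

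Single probes did not pass either. None of the 17771 usable probes of long-probe tiles had an adjusted p under 0.05 (limma over all 132042 probes, 0% called; lowest adjusted p 0.910). At an unadjusted p under 0.05 there were 898 (5.05%, against 3.13% of all probes), of which 828 were higher (4.66%, against 2.68%) and 70 lower (0.394%, against 0.449%) in cadmium offspring.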

How the data were processed

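Per the file headers, the authors' scanner files were made with Agilent Feature Extraction 11.0.1.1; the deposited signal intensity values are background-subtracted and dye-scaled. Per the labels' protocols, Cy5 marks immunoprecipitated and Cy3 input DNA. The deposited table holds log2 values; its scaling, centring and smoothing are not given in the sources used here, and the submitters' processing notes name limma.

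Log2(Cy5/Cy3) was centred on each array's median over non-control probes. Probes with input well above background on all 6 arrays and no outlier flag were averaged per tile (at least 3). Tiles, channels and probes were fitted with lmFit and eBayes (limma 3.58.1, R 4.3.3; Benjamini-Hochberg over all, threshold 0.05), after testing on simulated data. Array means were compared by exact permutation. Members, lists and tests were chosen with earlier results of these data known. Tiles were named for extreme length, probe number, nearness to the length limit, extreme ratio, smallest p without overlap in each direction, and widest range. The number of arrays limits precision. Alternatives follow in the closing section.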

Additional observations from a re-analysis of the deposited data

How the results depend on the processing

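The 3 arrays per group limit what can be detected, and 34.4% of the usable probes of long-probe tiles were not well above background in the captured channel on any array. Alternatives changed the normalization, background correction, filters, tile rule, length limit, moderation, blocks and arrays used. Centring on the usable probes, and leaving out cadmium replicate 2 together with equal spread, were added after seeing the data. Of the long-probe tiles, 52 passed with array weights (of 106 among all tiles) and 7 with scan batch as a block (of 24 among all tiles), and 0 under the remaining 25 alternatives. The count at an unadjusted p under 0.05 (231, or 11.1%, against 3.57% of all tiles) was 49 at equal spread (2.35%, against 1.39%, 30 higher). It was 110 with probe length medians removed (5.28%, against 3.05%). With 1 array left out it was lowest at 68, without control replicate 2 (3.27%, against 1.36%). For the counts that follow, the share over all tiles was not computed, so they show only how the number of long-probe tiles moved. They were 96 with loess, 86 with quantile normalization, 6 with normexp and 38 of 1263 tiles with both channels above background. Trend and robust moderation gave 151, array weights 756, scan batch as a block 347 and as a random block 368. The deposited table gave 49 of 2114 tiles (20 higher). The highest count with 1 array left out was 597, without cadmium replicate 1. The median difference (0.18) was 0.015 with quantile normalization, 0.0038 with normexp, -0.0071 at equal spread, 0.010 with length medians removed, -0.011 in the deposited table, 0.047 without cadmium replicate 2 at equal spread, and 0.082 to 0.27 with 1 array left out. The difference of the mean ratio (0.18) turned to -0.012 at equal spread and to -0.012 in the deposited table, and was 0.0015 with normexp, 0.011 with quantile normalization, 0.0074 with length medians removed, 0.078 with both channels above background, 0.072 with scan batch as a block, 0.11 with loess, 0.051 without cadmium replicate 2 at equal spread, and 0.087 to 0.27 with 1 array left out. Long-probe minus other tiles (-1.49) turned to 0.042 with length medians removed. It was -1.49 without cadmium replicate 2 at equal spread and -1.56 to -1.46 with 1 array left out, where 5 arrays allow no exact permutation p under 0.0625. It was -0.69 with loess, -0.77 with normexp and -0.93 with both channels above background. Its difference between groups (0.18) turned to -0.00035 with length medians removed and to -0.0092 in the deposited table. Among named tiles, chr1:163948276-163950013 turned to 0.082 with the median of probes and chr1:165476533-165478277 to 0.087 without the filter on dim probes. With array weights 5 named tiles passed, and 3 of them also with scan batch as a block; their adjusted p-values stand beside the tiles. The cause of these changes was not tested. Replicate numbers did not pair the arrays (correlations of same-numbered deviations -0.19, -0.10 and 0.37). With the replicate number as a block, 0 long-probe tiles passed. In that fit 232 had an unadjusted p under 0.05, for which no share over all tiles was computed. No probe of a long-probe tile passed under any of the 22 alternatives run for probes (limma). The count at an unadjusted p under 0.05 ran from 148 to 2167, with no share over all probes computed for these alternatives.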
